A study of Mus musculus with 8 samples.

Results

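GC-rich peaks at the start sites of protein-coding genes were followed in ATAC-seq data of mouse embryonic hearts. A peak was a member if it lay within 1 kb of a coding transcription start site (TSS) and if at least 60% of its bases were G or C. There were 1579 such peaks among the 15736 listed peaks, or 10.0%. They were 1564 of the 12991 peaks in the Chd4-CMko list (12.04%) and 15 of the 2745 peaks in the WT list (0.546%). All 1579 had the same width, and all are counted below, since no filter on low values was applied.

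The samples were hearts at E10.5 from embryos labelled WT, for wild type, and from Chd4-CMko embryos, in which Chd4 is deleted in cardiomyocytes. There were 4 samples of each genotype, and each pooled several hearts, the number of which differs between the sources. The matings described for these mutants combined floxed Chd4 alleles (Chd4 fl/fl females, Chd4 fl/+ males) with a Cre carried on the male side at Tnnt2, a cardiomyocyte gene, so that other cells of the heart were not targeted. Every embryo of such a mating carries a floxed allele. WT is thus used as the label, and the alleles of these controls are not given in the sources used here. ATAC-seq marks open chromatin through the insertion of adapters by the Tn5 transposase, here in nuclei of dissociated whole hearts, so a change in the share of a cell type and a change in accessibility within a cell cannot be told apart. The authors deposited a list of peaks with higher signal in each genotype. The lists pool the samples, so the values below have no replicate error, and although the study's methods state a sequencing depth, the reads used from each sample are not known here. The intervals given are Wilson 95% intervals for shares and Newcombe 95% intervals for differences of shares. These intervals hold only the counting error, and peaks close together may not be independent. The lists hold differential peaks and no level at unchanged sites, so they cannot serve to check the tissue or the deletion itself.

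Most mammalian genes that are used in many tissues, and many that direct development, start in CpG islands, stretches of DNA that are rich in G and C and keep their CpG dinucleotides. Elsewhere in the genome CpG is depleted, because methylated cytosine mutates readily. CHD4 is the ATP-dependent remodeller of the nucleosome remodelling and deacetylase (NuRD) complex, which removes acetyl groups from histones and shifts nucleosomes, and which is best known as a repressor.

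The sequences of 6 members show the range of these elements. Each is given 5′ to 3′ on the strand of its gene, from GRCm38 (mm10), and lies outside annotated exons, and the capitals mark GC boxes (GGGCGG) and CCAAT boxes (CCAAT) on either strand. In the CMko list, the member at Neo1 (chr9:59036489-59036639, minus strand) is shown for its many CpGs, 25. The member at Slc7a2 (chr8:40862228-40862378, plus strand) carries a run of 6 GC boxes. Those at Neurog1 (chr13:56252297-56252447, minus strand) and Sox7 (chr14:63943481-63943631, plus strand), which encode developmental transcription factors, combine both kinds of box. From the WT list, the members at Npffr2 (chr5:89526921-89527071, plus strand) and Slc43a2 (chr11:75537847-75537997, plus strand) are shown, with 9 CpGs and 1 CpG.
Neo1: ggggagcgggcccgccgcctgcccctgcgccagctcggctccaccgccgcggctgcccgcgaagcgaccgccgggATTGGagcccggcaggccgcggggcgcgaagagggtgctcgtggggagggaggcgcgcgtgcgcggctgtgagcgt
Slc7a2: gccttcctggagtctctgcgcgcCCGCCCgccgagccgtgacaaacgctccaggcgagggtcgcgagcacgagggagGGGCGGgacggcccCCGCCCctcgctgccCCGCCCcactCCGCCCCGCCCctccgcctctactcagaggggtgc
Neurog1: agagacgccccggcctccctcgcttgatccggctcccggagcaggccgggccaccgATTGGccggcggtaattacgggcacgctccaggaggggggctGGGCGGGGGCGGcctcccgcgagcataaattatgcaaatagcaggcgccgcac
Sox7: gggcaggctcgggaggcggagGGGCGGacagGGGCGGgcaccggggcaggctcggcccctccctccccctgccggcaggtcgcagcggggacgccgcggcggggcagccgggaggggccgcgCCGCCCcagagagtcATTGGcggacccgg
Npffr2: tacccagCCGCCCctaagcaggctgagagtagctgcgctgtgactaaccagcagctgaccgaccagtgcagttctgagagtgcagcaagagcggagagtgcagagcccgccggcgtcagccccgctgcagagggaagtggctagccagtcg
Slc43a2: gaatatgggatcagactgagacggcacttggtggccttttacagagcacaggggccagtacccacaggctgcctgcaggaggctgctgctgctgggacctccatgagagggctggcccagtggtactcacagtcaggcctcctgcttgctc

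To ask on which side these elements fell, the share of peaks from the CMko list was compared between sets. Of the members, 99.05% were in the CMko list (98.4 to 99.4%), against 82.6% of all listed peaks. Among the 746 start-site peaks with less than 60% GC, the share was 83.4% (80.5 to 85.9%). The difference of 15.7 percentage points had an interval of 13.1 to 18.5 (9.07, 6.36 to 12.7, for peaks numbered up to 2000 in the authors' peak names, a setting chosen after seeing the data), and the members had the higher share on 18 autosomes and an equal share on 1. Among the 2088 GC-rich peaks that lay over 1 kb from a coding TSS, the share was 94.4% (93.3 to 95.3%). This difference was smaller, 4.65 percentage points (3.56 to 5.79), with the members higher on 18 autosomes and lower on 1. It was 1.34 points (0.502 to 2.64) with GC read over 500 bp around the peak and 2.51 points (1.56 to 3.64) for peaks numbered up to 2000, so the size of both differences depended on the settings.

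The CMko share also rose with GC content inside the set. It was 96.8% of 378 members from 60 to 65% GC, 99.3% of 279 from 65 to 70%, 99.7% of 387 from 70 to 75%, and 100% of the 325 members from 75 to 80% and of the 210 at 80% or more. A rise with GC was also present away from start sites, from 57.2% of 747 peaks at 40 to 45% GC to 93.6% of 1413 peaks at 60 to 65%. GC content thus moved with the CMko share in both places, and its part in the result through library preparation or depth was not tested. At the same GC, members exceeded the peaks elsewhere by 3.20 percentage points from 60 to 65% (0.627 to 5.14), by 3.71 from 65 to 70% (1.25 to 6.22) and by 4.42 from 70 to 75% (1.84 to 8.71). From 75 to 80% both shares were 100%, with an interval of the difference of -1.17 to 5.13.

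**Figure D1:**
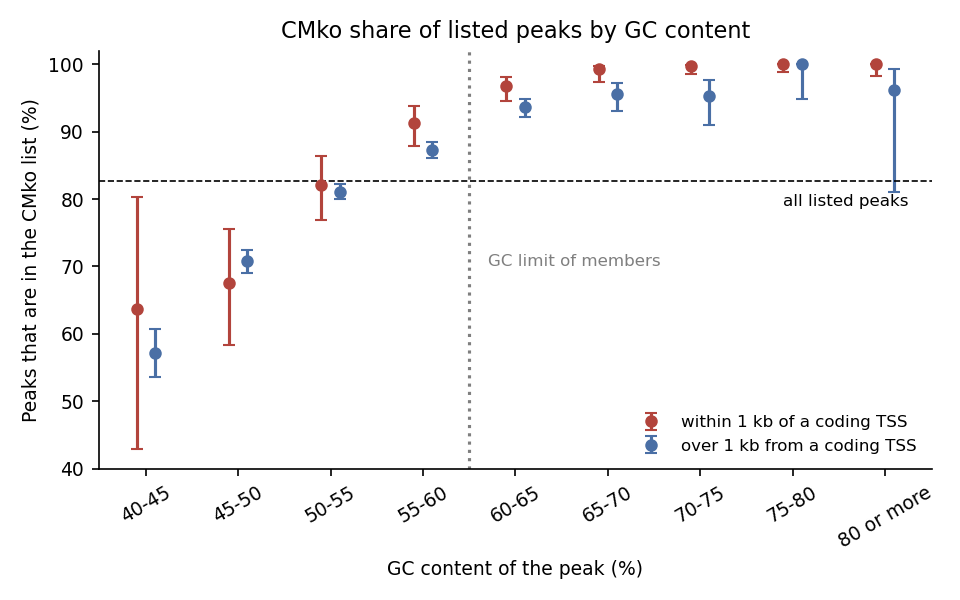
Share of listed peaks that are in the CMko list (vertical axis, %) by GC content of the peak (horizontal axis, classes of 5%), for peaks within 1 kb of a coding TSS (red) and farther away (blue), with Wilson 95% intervals. Members are the red points to the right of the dotted line, between 96.8% and 100%, and the dashed line is the 82.6% of all listed peaks.

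The CMko members ranked high in their list. The peak score is the authors' own value, and its scale is not stated, so it was read within a list only. The median member scored 176.5 (range 22.5 to 696.5) and stood above 88.7% of the CMko list, whereas GC-poor start-site peaks stood at a median of 57.1% and GC-rich peaks elsewhere at 67.6%. Median scores of members were 121 from 60 to 65% GC, 162 from 65 to 70%, 184.5 from 70 to 75%, 207.5 from 75 to 80% and 200.0 at 80% or more. At equal GC, median ranks of members and of GC-rich CMko peaks elsewhere were 78.2% and 62.9% from 60 to 65%. They were 89.7% and 83.5% from 70 to 75%, and 91.6% and 82.3% at 80% or more. Across the 1564 members, Spearman's rho of score with GC content was 0.315, a description of peaks that share the same libraries.

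The 10 highest scores were at genes of varied roles. They were led by Tspan17, a tetraspanin (696.5), Fbxo31, the substrate adaptor of a ubiquitin ligase (693), Vps4a, an ATPase of the ESCRT membrane-scission machinery (667.5), and Tns2, a tensin of focal adhesions (653). Hhex, a homeobox transcription factor of early endoderm and endothelium, followed with 621.5 and Etnk2, an ethanolamine kinase, with 595.5. Cfap99, named for cilia and flagella, had 589, and its peak was also within 1 kb of a TSS of Zfyve28. The last of the 10 were at Tesmin, known from the testis (578), Neo1, a receptor for netrins and repulsive guidance molecules (567), and Fgfr3, a receptor for fibroblast growth factors (563.5). Of these 10 peaks, 6 covered a TSS, and the farthest, at Tns2, was 126 bp away. None of them had another listed peak with its centre within 10 kb. Their CpG observed/expected ratios ran from 0.638 at Tesmin to 1.06 at Fbxo31.

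The WT list held 15 members. The highest scores were at Pde7b, a cyclic AMP phosphodiesterase (213.1), the predicted gene Gm14226 (130.2), Klrb1f, a lectin-like receptor of natural killer cells (113), and Npffr2, a neuropeptide receptor (96.1). Next came Foxs1, a forkhead factor (88.8), Slc43a2, a transporter of neutral amino acids (74.5), Foxe1, a forkhead factor of the thyroid (70.7), and Pstpip1, a protein of the actin cytoskeleton (54.9). The others were at Gm14698 (45.8), Dio2, the deiodinase that activates thyroid hormone (36.8), Hecw1, a ubiquitin ligase (34.6), and Tacr3, the neurokinin B receptor (33.9). The lowest were at Arpp21 (32.4), Chn1, a GTPase-activating protein for Rac (28.4), and Cdk17, a cyclin-dependent kinase (25.8). Of the 15, 12 had under 65% GC, and the most GC-rich was that at Gm14698, with 74.2%. A member's median rank was above 79.95% of the WT list, and 6 of the 15 covered a TSS (40%, 19.8 to 64.3%).

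Members clustered at the TSS itself. Of the CMko members, 709 covered a coding TSS (45.3%, 42.9 to 47.8%), against 26.5% of the 622 GC-poor start-site peaks of the same list (23.2 to 30.1%), a difference of 18.8 percentage points (14.4 to 22.9). Within 100 bp of the TSS lay 65.5% of the members and 46.8% of the GC-poor peaks. Of the members, 29.1% were upstream and 25.6% downstream of the TSS that they did not reach. The centre of a member was in a 5′ UTR in 25.1% of cases, against 6.75% of the GC-poor peaks (difference 18.3 percentage points, 15.2 to 21.1), and in an intron in 35.1% against 55.8% (difference -20.7, -25.2 to -16.1). A further 26.9% were outside genes, 6.59% in coding exons and 6.39% in other exons.

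**Figure D2:**
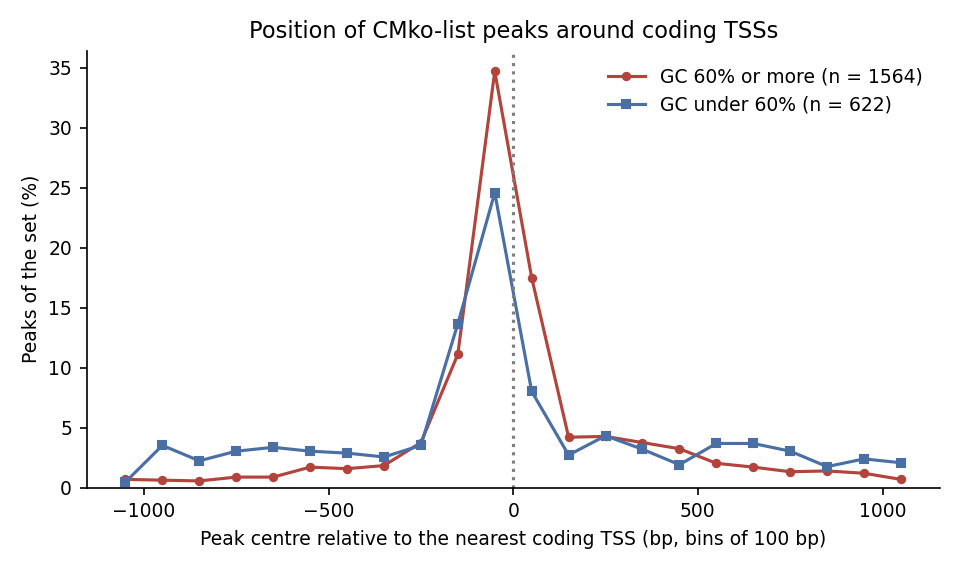
Percentage of the CMko-list peaks of each set (vertical axis) by distance of the peak's centre from the nearest coding TSS (horizontal axis, bp, negative upstream, bins of 100 bp), for the 1564 members (red) and the 622 GC-poor start-site peaks (blue). Both sets peak in the 100 bp before the TSS, with 34.7% of members and 24.6% of GC-poor peaks, and the members also have 17.5% in the 100 bp after it against 8.04%.

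CpG content was measured as the ratio of observed CpGs to those that the C and G content of the peak would give by chance. The CMko members had a ratio of 0.715 ± 0.277 (mean ± SD over 1564 peaks), with a median of 14 CpGs per peak. GC-rich CMko peaks elsewhere had 0.379 ± 0.268 (1971 peaks), GC-poor start-site peaks 0.277 ± 0.208 (622 peaks) and the 15 WT members 0.435 ± 0.238. A ratio of 0.6 or more, the customary limit for a CpG island, was reached by 1068 CMko members (68.3%). Of GC-rich CMko peaks elsewhere 19.9% reached it, a difference of 48.4 percentage points (45.4 to 51.2). These sets are not matched for GC, with means of 71.6% and 64.8%. With both lists together, mean ratios of members and GC-rich peaks elsewhere were 0.449 and 0.287 from 60 to 65% GC. They were 0.772 and 0.665 from 70 to 75%, and 0.958 and 0.935 at 80% or more. Of the WT members 3 of 15 reached 0.6 (20%), at Gm14226 (0.740), Gm14698 (0.830) and Arpp21 (0.650). This was 48.3 points below the CMko members (22.99 to 61.4). These lists differ in GC content, with means of 63.5% and 71.6%. From 60 to 65% GC, 2 of 12 WT members and 96 of 366 CMko members reached 0.6, a difference of 9.56 points whose 95% interval (-18.9 to 22.4) spanned 0, and the mean ratios were 0.388 and 0.451, a comparison added after the data were seen.

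The extremes lay at known genes. The highest ratios were at B3galnt1, a glycosyltransferase (1.40), Eid1, an inhibitor of the acetyltransferase p300 (1.37), Sp8, a zinc finger factor of limb and brain (1.35), Rela, a subunit of NF-kB (1.35), and Nrcam, an adhesion molecule of neurons (1.34). No CpG at all was present in the members at Lbp, which encodes the lipopolysaccharide-binding protein, Pitx3, a homeobox factor, Foxj2, a forkhead factor, Zcchc24, and Tnnt3, the fast skeletal troponin T. The WT member at Chn1 had none either, and repeats covered 52.3% of it, as they did 51.0% of that at Pitx3 and 47.7% of that at Foxj2. Repeats covered less of those at Lbp (20.5%), Tnnt3 (15.9%) and Zcchc24 (12.6%).

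Members with more CpG sat closer to the TSS. Among the 149 CMko members with a ratio under 0.3, 32.2% covered a TSS (25.2 to 40.1%) and 42.3% were within 1 kb of the 5′ end of a gene rather than of another of its starts. Among the 445 with a ratio of 0.9 or more, 56.4% covered a TSS (51.8 to 60.9%) and 85.4% were within 1 kb of a gene's 5′ end. The ratio itself rose with GC content (Spearman's rho 0.674 across 1564 peaks, both read from the same bases).

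**Figure D3:**
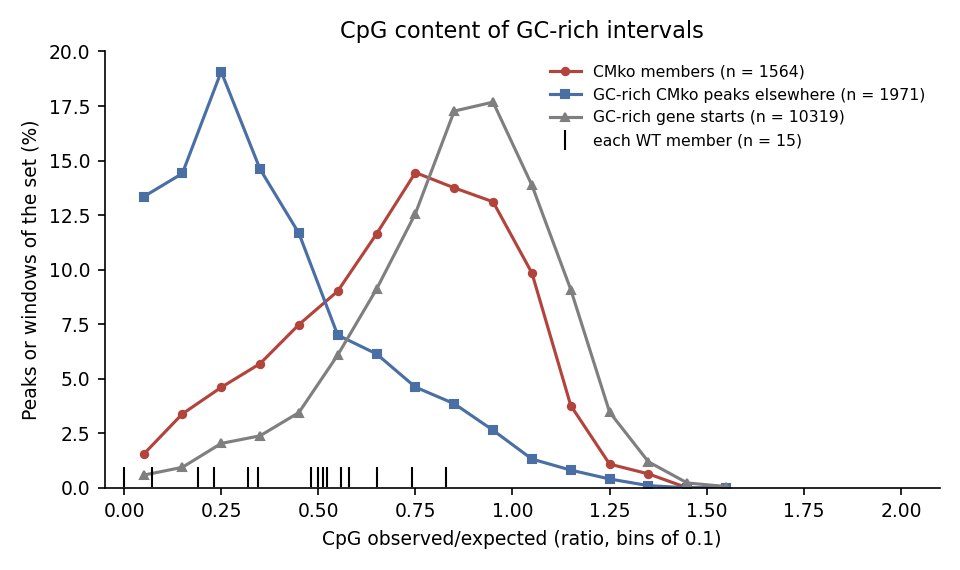
Percentage of each set (vertical axis) by CpG observed/expected ratio (horizontal axis, bins of 0.1) for CMko members (red), GC-rich CMko peaks elsewhere (blue) and windows of the same width centred on the 5′ ends of coding genes with at least 60% GC (grey), with a black tick for each WT member. The members lie between the other sets, and 68.3% of them reach 0.6, against 19.9% of the peaks elsewhere and 84.5% of the gene starts. The sets are not matched for GC content.

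To set the members beside gene starts in general, windows of the width of a peak, centred on the 5′ end of each coding gene were read. Of these, 10319 had at least 60% GC, with a CpG ratio of 0.846 ± 0.249. The 709 CMko members over a TSS had 0.770 ± 0.262 although their mean GC content was higher (72.3% against 69.6%). Of them 75.04% reached 0.6, against 84.5% of the windows (difference -9.49 percentage points, -12.9 to -6.36). The 709 cover any annotated start of a coding gene and the windows sit at 5′ ends only, so these are unlike kinds of start. With 5′ ends alone as TSSs, 35.5% of 1170 CMko members covered a TSS. The part of this in the gap was not tested. At equal GC the gap was larger at the lower end. From 60 to 65% GC, 30.4% of 135 members over a TSS reached 0.6 against 65.7% of 3187 windows (difference -35.3, -42.6 to -26.9), and from 65 to 70% it was 55.6% of 117 against 85.4% of 2591 (difference -29.8, -38.95 to -21.02). From 75 to 80% it was 97.04% against 98.7%, with an interval that included 0 (-5.52 to 0.137).

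Genes were then counted instead of peaks. A gene was called GC-rich at its start if such a window around any of its coding TSSs had at least 60% GC, and its window with the highest GC was used. From 60 to 65% GC, a CMko member was at 95 of 1266 genes whose start had a CpG ratio under 0.6 and at 75 of 1814 genes with a higher ratio (difference 3.37 percentage points, 1.70 to 5.15). From 65 to 70% GC, it was at 76 of 546 genes with the lower ratio (13.9%) and at 157 of 2487 with the higher (6.31%), a difference of 7.61 percentage points (4.76 to 10.9). From 70 to 75% the shares were 20.3% of 187 and 9.03% of 3166 genes (difference 11.3, 6.04 to 17.7). From 75 to 80% they were 24.1% of 29 and 14.8% of 2273, with an interval that included 0 (-2.66 to 27.4), and at 80% or more only 1 gene had a ratio under 0.6. With GC classes pooled the shares were 10.6% of 2029 and 10.3% of 11311 (difference 0.390, -1.002 to 1.91), since starts with a low ratio were mostly in the classes with less GC.

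CMko members were within 1 kb of a TSS of 1484 of the 21938 coding genes (6.76%). Among the 13340 genes with a GC-rich start they were at 1376 (10.3%), and WT members were at 11 (0.0825%). The share rose from 5.52% of 3080 genes whose start had 60 to 65% GC to 19.5% of 1572 genes with 80% or more. A peak counted only at 60% GC or more, so the rule itself favoured starts with more GC. Its part in this rise was not tested. Genes with a CMko member had a median start GC of 74.8%, against 70.9% for all 13340, while the median CpG ratios were 0.886 and 0.884. The start GC is not independent of the rule, which chose members by GC. On the X chromosome 39 of 404 such genes had a CMko member (9.65%), close to the 10.3% of the autosomes (difference -0.684, -3.25 to 2.63), which ranged from 7.06% on chromosome 16 to 14.3% on chromosome 7.

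To see which functions these genes have, 41 gene lists were counted, and each share below is of the list's genes with a GC-rich start, to be read beside the 10.3% of all such genes. The shares were above it in 26 lists. They are counts without a test, and the median of the best score per gene over the genes of a list with a member is to be read beside 183 for all 1484 genes. Among transcription factors, the share was highest for the Sox genes. Of these, which encode HMG-box factors, 11 of 16 had a CMko member (68.8%, median score 175.5), among them Sox7 (282), known from endothelium, Sox1 (259), a neural factor, Sox6 (235), Sox30 (198.5) and Sox17 (113), a factor of endoderm and endothelium. Of the Hox cluster genes, which pattern the body axis, it was 8 of 21 (38.1%, median score 111.8), led by Hoxa13 (238.5), Hoxc13 (174.5), Hoxa4 (137) and Hoxd13 (133.5), so that 4 of the 8 were of the paralog group 13, Hoxb13 (82.5) included.

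Genes of bHLH factors had a member in 15 of 45 cases (33.3%, median score 213.2). Tcf15, a factor of somites (399.5), Tcf12, a widely used bHLH partner (335), Twist1, a mesenchymal factor (333.5), and Ascl4 (309) led them, and the neurogenic factors Neurog1 (302.5) and Neurog3 (77.5) were also there. In a list of other homeobox families the count was 28 of 108 (25.9%, median score 138.5), with Gbx2 (368), Nkx2-3 (340), Hmx2 (261.5) and Dlx2 (244.5) highest in it. The list does not hold every homeobox gene, and Hhex (621.5) and Dmbx1 (264), each with a member, are outside it. Nuclear receptor genes had 11 of 40 (27.5%, median score 181.5), led by Rarg, a retinoic acid receptor (486.5), Nr4a2 (269), Nr2f6 (254) and Esrrb (213.5). Forkhead genes had 9 of 35 (25.7%, median score 164), led by Foxp4 (322), and T-box and GATA genes, with roles in heart development, had 3 of 17 (17.6%), namely Tbx15 (144.5), Tbx21 (112) and Tbx4 (95). KLF and SP genes, whose products bind GC boxes and CACCC boxes, had 1 of 22 (4.55%), namely Klf5 (263), while Sp5 and Sp8 had a member although their own starts were below the GC limit. Zfp genes, many of them KRAB zinc finger genes, had 16 of 237 (6.75%), led by Zfp516 (433.5).

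Genes for signalling between cells had shares between 13.6 and 26.9%. For fibroblast growth factors and their receptors it was 7 of 26 (26.9%, median score 139.5), with Fgfr3 (563.5), Fgf11 (261.5) and Fgf8, a signal to the early heart field (196), among them. For TGF-beta and BMP genes it was 10 of 49 (20.4%, median score 195.5), with Fstl1, a secreted follistatin-like protein (413), Tgfb1 (376.5), Bmp8b (213) and Gdf10 (210.5) ahead. Bmp4, a ligand with a role in the outflow tract, had a member with a score of 197. Wnt ligand and receptor genes had 9 of 48 (18.8%), led by the feedback inhibitor Axin2 (265), the co-receptor Lrp5 (200) and the ligands Wnt3 (176) and Wnt6 (170.5). Notch genes had 4 of 23 (17.4%), namely Notch3 (291.5), a receptor of vascular smooth muscle, Heyl (268), Jag2 (248) and Dtx3 (122.5). Shares nearer to 10.3% were found for ephrin genes (3 of 20, 15%), hedgehog genes (2 of 14, 14.3%) and semaphorin, plexin, netrin and slit genes (6 of 44, 13.6%, led by Sema3b with 289.5).

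Genes of membrane excitability had shares of 25.6 to 36.7%. Calcium and sodium channel genes had a member in 11 of 30 cases (36.7%), led by Cacna1b, the neuronal N-type channel (506), Cacnb3 (332.5), Cacna2d2 (310) and Cacng7 (299), and including Cacna1c, the L-type channel of cardiomyocytes (150). The median GC of their starts was 79.1%, and 14.9% of all genes from 75 to 80% GC had a member. Potassium channel genes had 21 of 72 (29.2%, median score 164.5). The highest were Kcnj10, an inward rectifier (485.5), Kcnip3 (475), Kcnh2 (414) and Kcnq1 (314.5), of which Kcnh2 and Kcnq1 carry repolarizing currents of the heart. Glutamate and GABA receptor genes had 10 of 39 (25.6%, median score 126.5), with Grik5 (341, nearer to a TSS of Zfp574) and Gabbr1 (309.5) among them, and Grin2d had a member (410.5) although its start was below the GC limit. Solute carrier genes had 35 of 265 (13.2%, median score 169.5), led by Slc25a1, the mitochondrial citrate carrier (473.5), and Slc7a2, a carrier of cationic amino acids (392.5).

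Among chromatin regulators, NuRD subunit genes had a CMko member in 5 of 15 cases (33.3%, median score 205.5), and their starts had a median GC of 78.1%. These were Hdac2, a histone deacetylase (234), Chd4 itself (219.5), its paralog Chd5 (205.5), the histone-binding Rbbp7 (180) and Mta3 (134.5). Polycomb genes had 6 of 31 (19.4%), led by Cbx7, which reads methylated H3K27 (342.5), Pcgf2 (322) and Rnf2, the ubiquitin ligase of the complex (235.5). SWI/SNF subunit genes had 2 of 24 (8.33%), the heart and muscle subunit Smarcd3 (424) and Smarcb1 (256), and histone genes 1 of 17 (5.88%, H2afy2 with 165).

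Muscle and cardiac cell type lists were small, and peaks at fast skeletal muscle genes were known from these data when the list was taken up. Of fast skeletal muscle genes, 7 of the 14 with a GC-rich start had a CMko member (50%, median score 108.5), led by Ckm, the muscle creatine kinase (234, 570 bp from its TSS and nearer to that of Klc3), Acta1, skeletal actin (203), Actn3, an actinin of fast fibres (136), and Atp2a1, the fast calcium pump (121). These 14 starts had a median CpG ratio of 0.355, against 0.884 for all genes with a GC-rich start, and a median GC content of 63.2%. Of 15 cardiomyocyte genes none had a member by this count, and Tnnc1, the slow and cardiac troponin C, had one (363.5) although its start was below the GC limit. Endothelial genes had 3 of 10 (30%, Nfatc1, Egfl7 and Sox17), epicardial and mesenchymal genes 3 of 7 (42.9%, Twist1, Aldh1a2 and Col1a1), smooth muscle genes 1 of 10 (10%, Tpm2) and erythroid genes 0 of 4. Since Twist1 and Sox17 were counted in other lists too, these counts are not independent, and whether the share of any cell type moved with them was not tested.

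Genes that every cell uses were rarely found. Ribosomal protein genes had 0 of 67, proteasome genes 0 of 44 and NADH dehydrogenase genes 0 of 39 with a CMko member. Mitochondrial ribosomal protein genes had 2 of 66 (3.03%, Mrpl14, whose peak was assigned by nearest TSS to Tmem63b, and Mrpl23), and splicing factor genes had 2 of 41 (4.88%, Prpf39 and Srsf12). These starts were rich in CpG, with median CpG ratios of 0.966 for ribosomal protein, 0.869 for proteasome and 0.912 for NADH dehydrogenase genes. Their median GC content was 66.2%, 68.2% and 65.6%, below the 70.9% of all such genes. From 65 to 70% GC, where these medians lie, 7.68% of all genes had a member, and the part of GC in these counts was not tested. Glycolysis genes had 2 of 23 (8.70%, Eno2 and Hk1) and hypoxia response genes 2 of 21 (9.52%, Ak4 and Igfbp3), both near the share of all genes. Of the 9 genes that the study named and that had a GC-rich start, 3 had a CMko member, at Igfbp3, Chd4 and Sox17, but this list is not independent, since the study chose it partly on these samples.

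**Figure D4:**
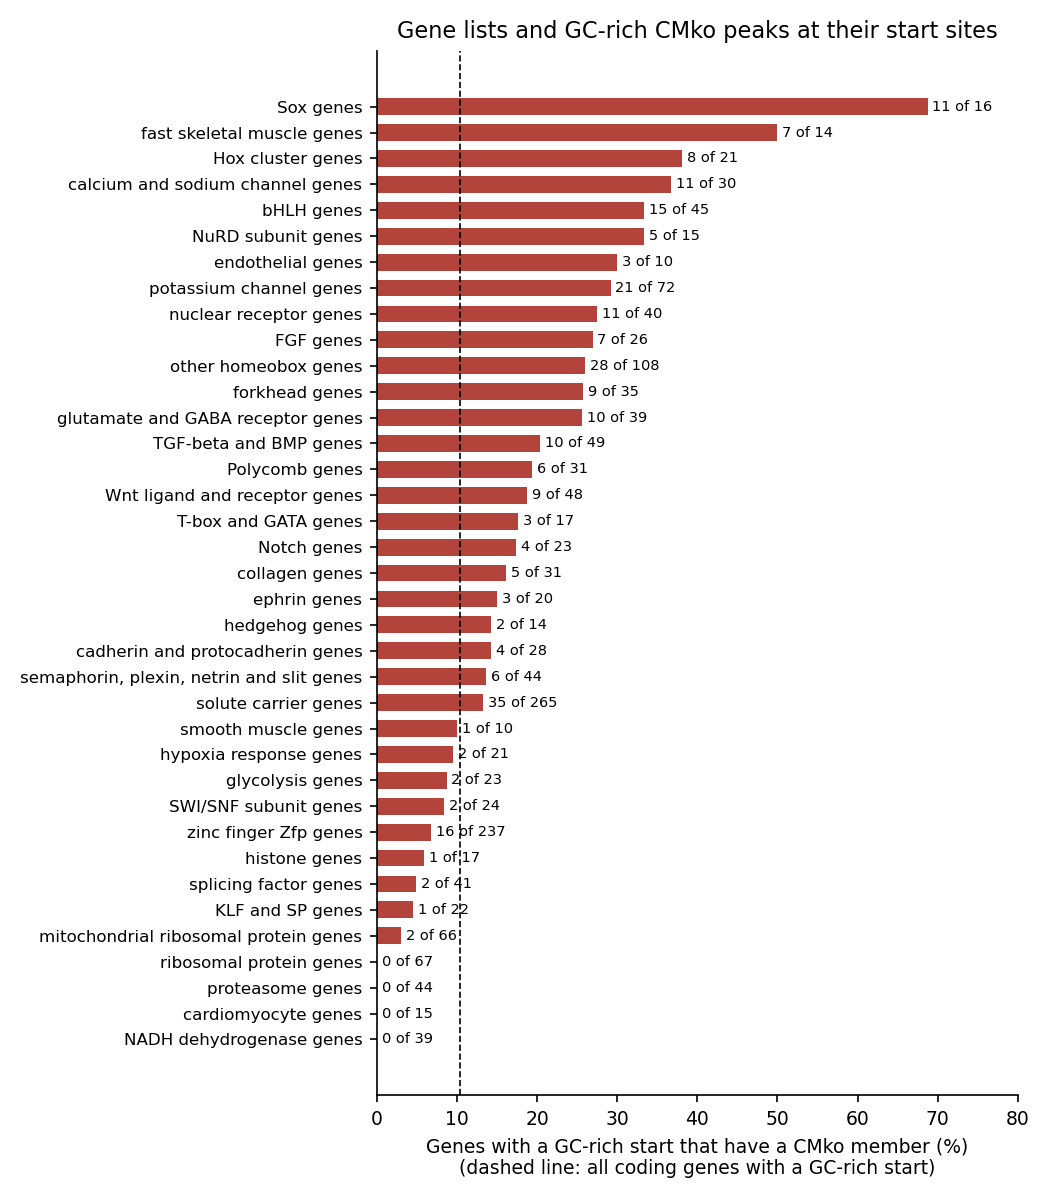
Percentage of the genes with a GC-rich start that have a CMko member (horizontal axis) for each gene list with at least 10 such genes (rows), with the counts beside the bars. The dashed line is the 10.3% of all 13340 coding genes with a GC-rich start, and the bars run from 68.8% for Sox genes to 0 for ribosomal protein, proteasome, NADH dehydrogenase and cardiomyocyte genes.

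Most genes had a single member. Of the 1484 genes with a CMko member, 1348 had 1, 125 had 2 and 11 had 3 or more, and 55 members (3.52%) had coding TSSs on both strands within 1 kb, against 1.13% of GC-poor start-site peaks (difference 2.39 percentage points, 0.964 to 3.58). Rap1gap, which encodes a GTPase-activating protein for Rap1, had 4. One covered its upstream TSS (score 133.5, CpG ratio 0.987), and 3 lay at downstream starts of the gene with ratios of 0.133 to 0.338 and scores of 202 to 327.5. Rarg had 3, and its strongest, with a ratio of 1.08, was in an intron 514 bp from an internal start (486.5), while the 2 before its upstream TSS scored 150 and 86. Gabbr1, a subunit of the GABA-B receptor, had 3, at scores of 309.5, 197 and 275.5. The 3 at Dlgap3, a scaffold of synapses, all lay around 1 TSS (184.5, 234.5 and 213.5), and the 3 at Ankrd34b scored 323, 93 and 105.5. Bcl3, a nuclear partner of NF-kB, Foxp4, Lingo1, Sh2d3c, Plcxd1 and Gm3252 also had 3. Gm3252 stood outside the limit of 10 genes to be named and was added after its count was seen.

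Members of both lists were found at 2 of the 15 genes with a WT member. Over all coding genes 6.76% had a CMko member, and 2 genes are too few to tell apart from that share. At Chn1 the CMko peaks covered TSSs (scores 177.5 and 201.5, CpG ratios 0.929 and 1.22), while the WT peak, without a CpG, was at another start farther down the gene. At Foxe1 the WT peak was 621 bp before the TSS (ratio 0.500) and the CMko peak was 726 bp after it, in the coding exon (score 128.5, ratio 1.21). Within 10 kb, 27 CMko members had a WT-list peak and 468 had another CMko-list peak (29.9%). The CMko list is longer (12991 peaks against 2745), and the same counts were not made for other peaks. They are therefore not read as particular to the members.

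Consensus strings of 13 motifs were searched on both strands without mismatch. Beside the 2 boxes spelled out above, promoter motifs were the CACCC box, written CCACACCC, the ETS site, written CCGGAAG, the NRF1 site, written GCATGCGC, and the cyclic AMP response element (CRE), written TGACGTCA. The E-box was searched as CACGTG, the YY1 site as AAGATGGC and the TATA box as TATAAA. For factors of the heart, the GATA site was searched as AGATAAG, the TEAD site as CATTCC, the T-box site as AGGTGTGA and the MEF2 site as CTAAAAAT. None of the strings lies within another. A match is a description of the bases and not a bound site. The GC box was in 68.1% of CMko members, 41.8% of GC-rich CMko peaks elsewhere (difference 26.3 percentage points, 23.1 to 29.5) and 64.1% of GC-rich gene starts. The difference from peaks elsewhere was 15.3 points from 60 to 65% GC (9.66 to 21) and 8.73 from 65 to 70% (1.11 to 16.1), but -4.42 from 70 to 75%, with an interval that included 0 (-12.4 to 4.19). Members with a GC box had a median score of 189.5 and those without it 146.5, and their mean GC contents were 73.2% and 68.3%.

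Against gene starts, some promoter motifs were more frequent in the members and others less. The gene starts are 5′ ends, while members over a TSS cover any start of a coding gene, and the part of this in the differences was not tested. The GC box was 4.01 percentage points more frequent (1.48 to 6.46), and 8.27 points more among members over a TSS (4.74 to 11.6), and the CACCC box was in 3.13% of members and 1.98% of gene starts (difference 1.16, 0.348 to 2.17). Among members over a TSS the CACCC box was in 2.82%, with an interval of the difference that included 0 (-0.184 to 2.36), and of the 5 GC classes only that from 60 to 65% had an interval above 0. Within GC classes, the GC box differed by -6.40 points from 70 to 75% GC (-11.5 to -1.56), and the intervals included 0 in the other 4. The ETS site was in 59 CMko members (3.77%) and in 12.8% of the 10319 GC-rich gene starts, a difference of -9.01 percentage points (-10.1 to -7.77). It was in 4.80% of the 709 members over a TSS (difference -7.99, -9.48 to -6.05). From 60 to 65% GC the shares were 3.55% and 14.4%, and from 75 to 80% they were 3.39% and 8.32%, each with an interval below 0. At 80% or more they were 2.38% and 3.94%, with an interval that included 0 (-3.64 to 1.71). The YY1 site was in 0.703% of members and 3.42% of gene starts (difference -2.72, -3.20 to -2.07), and the NRF1 site in 1.66% and 3.84% (difference -2.18, -2.83 to -1.34). Among members over a TSS these shares were 0.987% and 1.27%, with both intervals below 0. By GC class these differences were no longer clear of 0 where GC was high, for NRF1 with -2.01 from 70 to 75% (-3.43 to 0.159) and -1.18 at 75% or more (-2.24 to 0.372), and for YY1 with -0.954 at 75% or more (-1.81 to 0.375). The CCAAT box was in 16.2% of members, 15.5% of GC-rich CMko peaks elsewhere (difference 0.651, -1.76 to 3.10), 19.9% of gene starts and 33.4% of GC-poor start-site peaks. Against peaks elsewhere at equal GC, it was 9.47 points more frequent from 60 to 65% (4.69 to 14.6) and 6.51 from 70 to 75% (0.0357 to 11.9). The intervals of the other classes, and of every class against gene starts, included 0. With GC classes pooled, the CCAAT difference from gene starts was below 0, at -3.75 (-5.66 to -1.695). For members over a TSS it was -5.40 (-7.92 to -2.51).

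Sites of cardiac factors were rarer in the members than in GC-poor start-site peaks. The GATA site was in 9 of the 1564 members (0.575%), 6.43% of GC-poor start-site peaks (difference -5.86, -8.08 to -4.11) and 1.32% of GC-rich peaks elsewhere. The TEAD site was in 5.24%, 12.7% and 8.78%, the T-box site in 0.384%, 1.29% and 1.12%, and the MEF2 site in 1 member (0.0639%), 1.61% and 0.355%. These strings hold much A and T, and the sets differ in GC content by construction. Against GC-rich gene starts the GATA site was not lower (0.310%, difference 0.265, -0.0354 to 0.788), and the TEAD site was more frequent in members (3.65% of gene starts, interval of the difference 0.521 to 2.86), though among members over a TSS that interval included 0 (-1.08 to 1.87). The TATA box was in 1.34% of members, 4.82% of GC-poor start-site peaks and 2.07% of GC-rich gene starts.

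**Figure D5:**
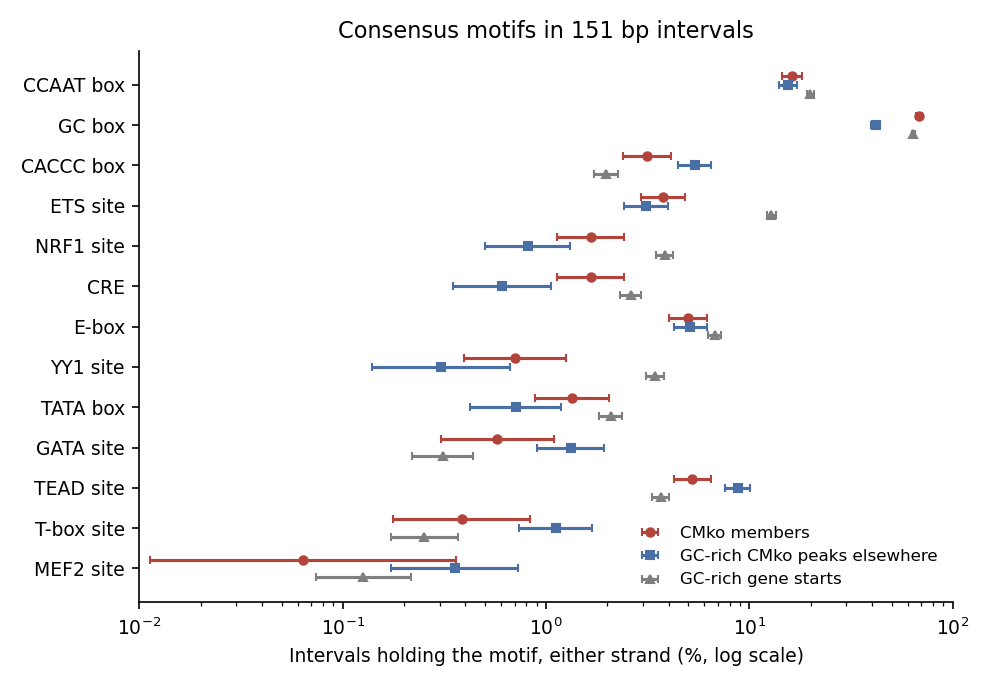
Percentage of intervals that hold each consensus string on either strand (horizontal axis, log scale) for CMko members (red), GC-rich CMko peaks elsewhere (blue) and GC-rich gene starts (grey), with Wilson 95% intervals. The ETS site, at 3.77% in members and 12.8% at gene starts, shows the widest gap in percentage points between members and gene starts.

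The limit of 60% GC cut through a continuous range. Just inside it, at 60.3% GC, were 42 CMko and 3 WT peaks with a median CMko score of 99, the highest at Rsph1, a gene of radial spokes in cilia (371), Sox6 (235) and Slc30a10, a manganese transporter (231). Just outside, at 59.6%, were 46 CMko and 2 WT peaks with a median CMko score of 81.5, led by Tspear (403.5), Trpm4, a cation channel (313.5), and Brk1, a subunit of the actin regulator WAVE (265.5).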

How the data were processed

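ATAC-seq was done by the authors on pooled E10.5 hearts, 4 samples of each genotype. Per the labels and the submitters' processing notes, reads were aligned to mm10 with BWA-MEM, peaks were called with HOMER (version 4.10.3) and annotated with ChIPseeker (version 1.20.0). A 2-fold limit made a peak differential. Read filters, duplicates, the Tn5 shift and the way samples were pooled are not given in the sources used here, and each can change which peaks pass. The deposited files were 2 lists of peaks with a score by the authors whose scale is not stated. CMko scores were multiples of 0.5, and scores were read within a list.

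Peaks were joined to GENCODE M21 and the GRCm38 sequence, the same build as mm10, in Python 3.11.15 with numpy 2.4.6, pandas 2.3.3, scipy 1.17.1, pysam 0.24.0 and matplotlib 3.10.9. TSSs were those of all transcripts of coding genes. CpG observed/expected was CpG count times length over the product of C and G counts. Statistics were tested on simulated data. Members, gene lists, motifs and comparisons were chosen with earlier results of these data known. Genes named were the 10 highest scores, every WT member, genes with 3 or more members (up to 10), genes in both lists, the 5 highest and 5 lowest CpG ratios, up to 4 genes per list by score, the study's genes, and the 3 peaks on either side of the GC limit. A few more from the lists were added for their role after their values were seen. Some items that this rule names are not reported here.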

Additional observations from a re-analysis of the deposited data

How the results depend on the processing

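No paired analysis was possible because each list pools the samples of its genotype, although the labels number the samples 1 to 4 in both. Of 179 recomputed values, 157 met the criterion for their kind. A count had to lie within 1.5 times, and a share within the interval of the main share. A difference had to keep its side of 0 and an interval that still excluded or still included 0, while its size could change. The mean CpG ratio and the median score rank had only to lie within the SD over peaks. That SD was 0.2765 for the CpG ratio, whose means ran from 0.6452 to 0.7949. Median ranks ran from 86.32% to 90.65%. All 14 values of the CpG ratio and all 12 of the rank met this wide limit. They are counted among the 157 but are not read as a check. The number of CMko members ran from 1170 to 1890, the genes from 1164 to 1758, the difference in CMko share from GC-poor start-site peaks from 9.07 to 21.5 percentage points and that from GC-rich peaks elsewhere from 1.34 (GC over 500 bp) to 7.35 (GC limit of 55%), with every interval above 0. Leaving out each autosome gave CMko shares of 98.9 to 99.2%. A GC limit of 55% gave 46 WT members and a CMko share of 97.6%, 65% gave 3 and 99.8%, GC over 500 bp gave 3 and 99.8%, and peaks numbered up to 2000 (chosen after seeing the data) gave 5 and 99.6%. The share over a TSS was 35.5% with the 5′ end of each gene only, 50.8% and 40.9% with limits of 500 and 2000 bp, and 42.2% and 47.9% with GC limits of 55% and 65%. By GC class, the GC box difference from peaks elsewhere turned to -4.42 from 70% and was 4.73 from 75%, with intervals that included 0. The CCAAT difference was 9.47 from 60% and 6.51 from 70%, with intervals above 0, and -1.71 from 75%. Against gene starts, the NRF1 difference was -2.01 from 70% and -1.18 from 75%, the YY1 difference -0.954 from 75%, and the CpG difference of members over a TSS -1.06 from 75% (chosen after seeing the data), all with intervals that included 0. These classes hold fewer peaks, and the cause was not tested otherwise. The depth stated in the study's methods is not the number of reads used from each sample, which is not known here, so it is not known which sites could have been called in either genotype.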
